A study of Mus musculus with 106 samples.

Results

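Described here are 9 voltage-gated potassium channel genes of the Kv3 and Kv1 families and their partner subunits, picked by name. They are Kcnc1, Kcnc2 and Kcnc4, which encode pore-forming Kv3 subunits, Kcna1, Kcna2, Kcna4 and Kcna6, which encode pore-forming Kv1 subunits, Kcns3, which encodes a silent subunit, and Kcnab1, which encodes an auxiliary beta subunit. The deposited table held 55401 mouse genes, 21897 of them protein-coding, and all 9 genes were found in it. All 9 also passed the filter on low counts, a mean above 10 counts per library, in every test described here. Kv3 channels activate only at strongly depolarised potentials and deactivate fast, which keeps action potentials brief and lets fast-spiking neurons, such as the parvalbumin (PV) interneurons of the cortex and many cerebellar neurons, fire at high rates. Kv1 channels activate near threshold and sit largely on axons, at initial segments, beside nodes and at terminals, where they limit excitability. The Kcns3 product carries no current alone and modifies Kv2 channels, and the Kcnab1 product binds Kv1 channels inside the cell and speeds their inactivation.

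The study compared mice carrying an expanded Huntington's disease (HD) allele, Hdh^Q7/Q200, with control littermates, Hdh^Q7/Q7, on a 129S4 background at about 9 months of age. Each mouse also carried 1 copy of a Cre driver and 1 copy of RiboTag (Rpl22-HA), so that Cre-positive cells made ribosomes with an epitope tag and their translating mRNA could be pulled down by immunoprecipitation (IP). The drivers were Gad2-IRES-Cre for inhibitory neurons, PV-IRES-Cre for parvalbumin neurons and vGluT2-IRES-Cre for neurons with the vesicular glutamate transporter Slc17a6, and each marks every cell in which the driver was once active, not those that express it in the adult alone. A further line labelled SST was deposited as HD and control, and the available descriptions of the Cre lines and of the age do not name it. The cerebrum here is the brain without cerebellum and olfactory bulb, and for PV, duplicate IPs were pooled. Control and HD IP libraries numbered 6 and 6 for cerebral Gad2, 6 and 5 for PV, 5 and 4 for SST, 6 and 6 for cerebral vGluT2, 6 and 6 for cerebellar Gad2, and 5 and 6 for cerebellar vGluT2. Total RNA of the same tissues (input) gave 3 control and 3 HD libraries each for cerebral Gad2, PV, cerebral vGluT2 and cerebellar Gad2, 4 and 3 for SST, and 4 and 4 for cerebellar vGluT2. These 106 libraries, 67 from IPs and 39 from total RNA, came from 45 mice and held 21905221 to 107753586 counts each, with a median of 35866725. Levels are given in CPM, the count of a gene scaled to the size of its library, after scaling by trimmed mean of M-values (TMM) over all 106 libraries. Where genes are compared with each other, levels are given as CPM per kilobase (kb) of exon.

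The labels were checked against marker genes in the control libraries. Gad1, the main GABA-synthesising enzyme, averaged 1521 ± 190.1 (SD, n = 6) CPM in cerebral Gad2 IPs against 315 ± 40.7 (SD, n = 13) in cerebral total RNA. Pvalb averaged 615 ± 96.5 (SD, n = 6) in PV IPs, 443 ± 118 (SD, n = 6) in cerebral Gad2 IPs and 145 ± 32.7 (SD, n = 5) in SST IPs. Sst averaged 1326 ± 293 (SD, n = 5) in SST IPs and 97.8 ± 22.7 (SD, n = 6) in PV IPs. These markers stood where the labels place them. Slc17a6 averaged 114 ± 38.6 (SD, n = 6) in cerebral vGluT2 IPs but also 117 ± 20.5 (SD, n = 6) in PV IPs, so that it did not set these groups apart, whereas Slc17a7, the transporter of most cortical excitatory neurons, averaged 2061 ± 250.4 (SD, n = 6) in vGluT2 and 830.1 ± 90.8 (SD, n = 6) in PV IPs. In the cerebellum, the Purkinje cell gene Car8 averaged 3751 ± 528 (SD, n = 6) in Gad2 IPs and the granule cell gene Gabra6 averaged 1271 ± 177 (SD, n = 5) in vGluT2 IPs. The cerebellar vGluT2 IPs thus carried granule cell mRNA above all. Transcripts of cells outside the label remained in the IPs: the summed level of 5 oligodendrocyte genes was 2492 to 4359 with a median of 2912 CPM in SST IPs, 1436 to 2305 with a median of 1828 in PV IPs and 4437 to 6067 with a median of 4847 in cerebral total RNA. The most abundant of them in cerebral total RNA was Mbp. HD PV replicate 3 stood apart by a summed level of 3 Purkinje genes of 1436 CPM, where the median of HD PV IPs was 87.4 and control PV IPs ran from 80.5 to 595 with a median of 153.

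Libraries also differed in how strongly long genes were represented. A long-gene index, defined here as the median log2(CPM + 1) of long genes, those above the 0.75 quantile of exon length, minus that of short genes, those below the 0.25 quantile, ran from -0.06 to 1.62 over the 13 control libraries of cerebral total RNA and from 1.43 to 2.04 over the 6 control PV IPs. The exon lengths of the 9 genes run from 3.16 kb for Kcns3 and 3.67 kb for Kcnc4 through 4.78 kb for Kcna1, 4.83 kb for Kcna4, 5.95 kb for Kcna6, 7.14 kb for Kcnc2, 8.59 kb for Kcnab1 and 9.46 kb for Kcnc1 to 11.9 kb for Kcna2. In the fit of control libraries, genes above 6825 bases are long in this sense, so Kcnc1, Kcnc2, Kcna2 and Kcnab1 belong to them. On mouse build GRCm38.p6, Kcna1 (ENSMUSG00000047976.4) lies on chromosome 6 from 126640397 to 126646384 and Kcna6 (ENSMUSG00000038077.7) from 126708329 to 126740674, both on the minus strand, 61.9 kb apart with no protein-coding gene between them. Kcna2 (ENSMUSG00000040724.5, chromosome 3, 107101146 to 107115005) and Kcnc4 (ENSMUSG00000027895.10, chromosome 3, 107438303 to 107459552) lie 323 kb apart with 7 protein-coding genes between them. Kcnab1 (ENSMUSG00000027827.17) spans 65109384 to 65378223 on the same chromosome. Kcnc1 (ENSMUSG00000058975.7) lies on chromosome 7 from 46396497 to 46438704, Kcnc2 (ENSMUSG00000035681.7) on chromosome 10 from 112271121 to 112467024, Kcna4 (ENSMUSG00000042604.5) on chromosome 2 from 107290639 to 107298502 and Kcns3 (ENSMUSG00000043673.11) on chromosome 12 from 11090202 to 11151056. Gm26673, an antisense gene over Kcna6, had a median count of 121 per library, and whether its reads were kept apart from those of Kcna6 is not stated in the available descriptions.

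The first question was in which cells each gene was high in control mice. Kcnc1, the Kv3 gene best known from fast-spiking interneurons and cerebellar granule cells, measured 998, 1090.2, 1156, 1296 and 1328 CPM in the 5 cerebellar vGluT2 IPs. It measured 748 to 916 with a median of 846 in the 6 PV IPs and 551 to 805 with a median of 663 in the 7 cerebellar total RNA libraries. The remaining groups followed at 400.3 to 487 with a median of 444 in cerebral Gad2 IPs, 313 to 424 with a median of 368 in cerebellar Gad2 IPs, 314, 349.8, 360.2, 368 and 429 in SST IPs, 187 to 313 with a median of 273 in cerebral total RNA and 167 to 214 with a median of 191 in cerebral vGluT2 IPs. Every cerebellar vGluT2 IP lay above every PV IP, and among cerebral groups every PV IP lay above all others. PV IPs overlapped with cerebellar total RNA, cerebral Gad2, cerebellar Gad2 and SST IPs overlapped in turn, and cerebral total RNA overlapped with cerebral vGluT2 IPs. Within the cerebrum Kcnc1 was higher in PV IPs than in SST IPs by a log2 fold change of 1.18 (standard error 0.11), adjusted p = 3.05e-12 by edgeR's quasi-likelihood F test, Benjamini-Hochberg adjusted.

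Kcnc2 encodes the other Kv3 subunit of fast-spiking interneurons, and its level was low outside the cerebral inhibitory groups. It measured 176 to 362 with a median of 311 CPM in PV IPs, 134 to 194 with a median of 175 in cerebral Gad2 IPs and 120.4, 149.7, 170.0, 173 and 173 in SST IPs. The lowest PV IP lay inside the Gad2 range, Gad2 and SST IPs overlapped, and every PV IP lay just above every SST IP. Every SST IP in turn lay above every cerebral vGluT2 IP (39.3 to 90.3 with a median of 85.1). Cerebral total RNA spread from 21.7 to 99.3. Cerebellar libraries were low, at 7.63, 8.97, 9.57, 12.8 and 28.9 in vGluT2 IPs, 2.87 to 17.5 with a median of 7.25 in Gad2 IPs and 1.198 to 26.7 with a median of 5.803 in total RNA, each overlapping with the next. Gad2 IPs of the cerebellum were lower than those of the cerebrum by a log2 fold change of -4.4 (standard error 0.46), adjusted p = 7.74e-12 by edgeR's quasi-likelihood F test, Benjamini-Hochberg adjusted, with no overlap between the groups. Against SST IPs, PV IPs showed a Kcnc2 log2 fold change of 0.89 (standard error 0.42), which missed the threshold of 0.05 in the fit of all control libraries (adjusted p = 0.162 by the same test) but passed it in a fit of only these 2 groups (0.90, adjusted p = 0.00279).

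Kcnc4, which encodes a Kv3 subunit whose current inactivates fast, ran the other way. It measured 102 to 146 with a median of 121 CPM in cerebellar Gad2 IPs, 61.3 to 128 with a median of 104 in cerebral total RNA, 81.6 to 104 with a median of 91.96 in cerebral vGluT2 IPs and 62.2, 72.2, 80.7, 87.8 and 94.7 in SST IPs. The lower groups were cerebellar vGluT2 IPs (43.7, 65.4, 73.1, 73.4 and 73.7), cerebellar total RNA (55.6 to 82.2 with a median of 64.1), cerebral Gad2 IPs (35.8 to 63.9 with a median of 55.8) and PV IPs (40.1 to 65.7 with a median of 50.4). Every group overlapped with the next in this order. PV IPs were lowest of the 8 groups by median, and lower than SST IPs by a log2 fold change of -0.66 (standard error 0.14, adjusted p = 3.79e-04 by edgeR's quasi-likelihood F test, Benjamini-Hochberg adjusted), although the highest PV value lay inside the SST range. That call was lost with the mouse as a block, described below (-0.58, adjusted p = 0.395).

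Kcns3, the silent subunit gene, is a textbook PV interneuron transcript in cortex. It measured 25.8 to 37.1 with a median of 31.6 CPM in PV IPs, above every other library of the remaining 7 groups. Cerebral Gad2 IPs (15.2 to 19.3 with a median of 16.9) and SST IPs (11.5, 11.8, 12.5, 15.4 and 16.1) overlapped, and both lay above all cerebral total RNA libraries (5.43 to 9.18 with a median of 7.16). Cerebral vGluT2 IPs (1.68 to 4.31 with a median of 2.92) and the cerebellar groups, 1.65 to 3.04 with a median of 2.05 in total RNA, 0.3102 to 2.15 with a median of 0.638 in Gad2 IPs and 0.364, 0.551, 0.629, 1.17 and 1.76 in vGluT2 IPs, each overlapped with the next. PV IPs were higher than SST IPs by a log2 fold change of 1.24 (standard error 0.26, adjusted p = 4.42e-04 by edgeR's quasi-likelihood F test, Benjamini-Hochberg adjusted). That call was lost with the mouse as a block, described below (1.44, adjusted p = 0.269).

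Among the Kv1 genes, Kcna2 encodes a main axonal subunit. It measured 451 to 775 with a median of 617 CPM in cerebellar Gad2 IPs, 447 to 549 with a median of 471 in PV IPs and 369, 378, 394, 419.6 and 426 in SST IPs. Cerebellar Gad2 and PV IPs overlapped, every PV IP lay above every SST IP, and every SST IP lay above all libraries of the 5 remaining groups. Those were cerebellar total RNA (202 to 364 with a median of 326), cerebellar vGluT2 IPs (180.4, 185, 257, 263 and 270.1), cerebral vGluT2 IPs (227 to 270.2 with a median of 247), cerebral Gad2 IPs (149 to 259 with a median of 232) and cerebral total RNA (39.9 to 239 with a median of 104), each overlapping with the next. PV IPs exceeded cerebral Gad2 IPs by a log2 fold change of 1.17 (standard error 0.24), adjusted p = 4.45e-05 by edgeR's quasi-likelihood F test, Benjamini-Hochberg adjusted, and SST IPs by 0.27 (standard error 0.24), which missed the threshold in the fit of all control libraries (adjusted p = 0.519) but not in a fit of only these 2 groups (0.27, adjusted p = 0.0455).

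Kcna1, whose product joins Kcna2 subunits in axonal channels and whose human counterpart is mutated in episodic ataxia, varied widely between libraries of a group. It measured 50.2 to 91.9 with a median of 64.7 CPM in cerebellar total RNA, 20.6 to 58.96 with a median of 50.1 in cerebellar Gad2 IPs, 29.9 to 65.2 with a median of 43.9 in PV IPs and 37.2, 40.8, 42.98, 53.7 and 85.9 in cerebellar vGluT2 IPs. Cerebral total RNA (14.97 to 45.6 with a median of 28.04), cerebral vGluT2 IPs (10.2 to 39.8 with a median of 25.6), SST IPs (10.4, 18.4, 25.1, 28.5 and 33.4) and cerebral Gad2 IPs (10.5 to 32.4 with a median of 19.4) were lower by median. All neighbours in this order overlapped. It was higher in PV than in SST IPs by a log2 fold change of 0.96 (standard error 0.32), with an adjusted p of 0.0342 by edgeR's quasi-likelihood F test, Benjamini-Hochberg adjusted. This call, though not the direction, changed with single libraries. The adjusted p rose to 0.1002 without PV replicate 1 (0.80), 0.0705 without PV replicate 2 (0.89), 0.0717 without PV replicate 3 (0.91), 0.112 without SST replicate 1 (0.78), 0.0704 without SST replicate 3 (0.89) and 0.0614 with library totals in place of TMM (0.88). With the mouse as a block, described below, the adjusted p was 0.727 (0.96). The difference between PV and cerebral vGluT2 IPs (0.84, adjusted p = 0.0164) likewise lost its call without vGluT2 replicate 1 (0.67, adjusted p = 0.0569).

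Kcna4, which encodes a fast-inactivating Kv1 subunit, was a gene of the cerebrum. It measured 31.3 to 60.1 with a median of 43.1 CPM in cerebral Gad2 IPs, 21.9 to 37.8 with a median of 33.1 in cerebral vGluT2 IPs, 18.4, 19.3, 20.2, 22.8 and 24.4 in SST IPs, 9.11 to 22.8 with a median of 14.1 in total RNA and 13.1 to 19.9 with a median of 13.9 in PV IPs. Apart from the lowest total RNA library, all of these lay above every cerebellar library, of which Gad2 IPs held 4.48 to 9.15 with a median of 7.405, total RNA 2.71 to 5.93 with a median of 3.82 and vGluT2 IPs 0.827, 0.875, 0.894, 2.51 and 4.55. Neighbours overlapped within each region. PV IPs were lower than cerebral Gad2 IPs by a log2 fold change of -1.53 (standard error 0.27, adjusted p = 4.94e-06 by edgeR's quasi-likelihood F test, Benjamini-Hochberg adjusted), and no PV IP reached the lowest Gad2 IP. The difference of cerebellar Gad2 from vGluT2 IPs, 1.9, became 2.51 without vGluT2 replicate 5.

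Kcna6, another axonal Kv1 subunit gene, marked the cerebellar Gad2 IPs. It measured 195 to 310.2 with a median of 259 CPM there, above every library of the other 7 groups. SST IPs (122, 138, 143, 146 and 173), PV IPs (106 to 139 with a median of 119), cerebral total RNA (90.6 to 144 with a median of 119), cerebellar total RNA (87.2 to 113 with a median of 98.1), cerebral Gad2 IPs (86.4 to 94.98 with a median of 90.99) and cerebral vGluT2 IPs (79.4 to 97.03 with a median of 88.3) each overlapped with the next. Cerebellar vGluT2 IPs (18.8, 19.6, 26.6, 28.4 and 33.2) lay below all of them, and the log2 fold change between the cerebellar Gad2 and vGluT2 IPs was 3.37 (standard error 0.12), adjusted p = 8.47e-29 by edgeR's quasi-likelihood F test, Benjamini-Hochberg adjusted.

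Kcnab1, the beta subunit gene, was high in Gad2 IPs of both regions. It measured 234 to 325 with a median of 299 CPM in cerebral and 205 to 320.0 with a median of 230.4 in cerebellar Gad2 IPs, which overlapped and lay above every other library. PV IPs (126 to 189 with a median of 169), SST IPs (91.4, 122, 125, 127 and 127), cerebellar total RNA (71.6 to 121 with a median of 107), cerebral vGluT2 IPs (47.8 to 103 with a median of 98.6), cerebellar vGluT2 IPs (71.04, 74.8, 82.7, 91.4 and 122) and cerebral total RNA (29.7 to 106 with a median of 63.7) each overlapped with the next. PV IPs were lower than cerebral Gad2 IPs, with a log2 fold change of -0.73 (standard error 0.20) and an adjusted p of 0.00249 by edgeR's quasi-likelihood F test, Benjamini-Hochberg adjusted. That call was lost with the mouse as a block, described below (-0.60, adjusted p = 0.177).

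**Figure D1:**
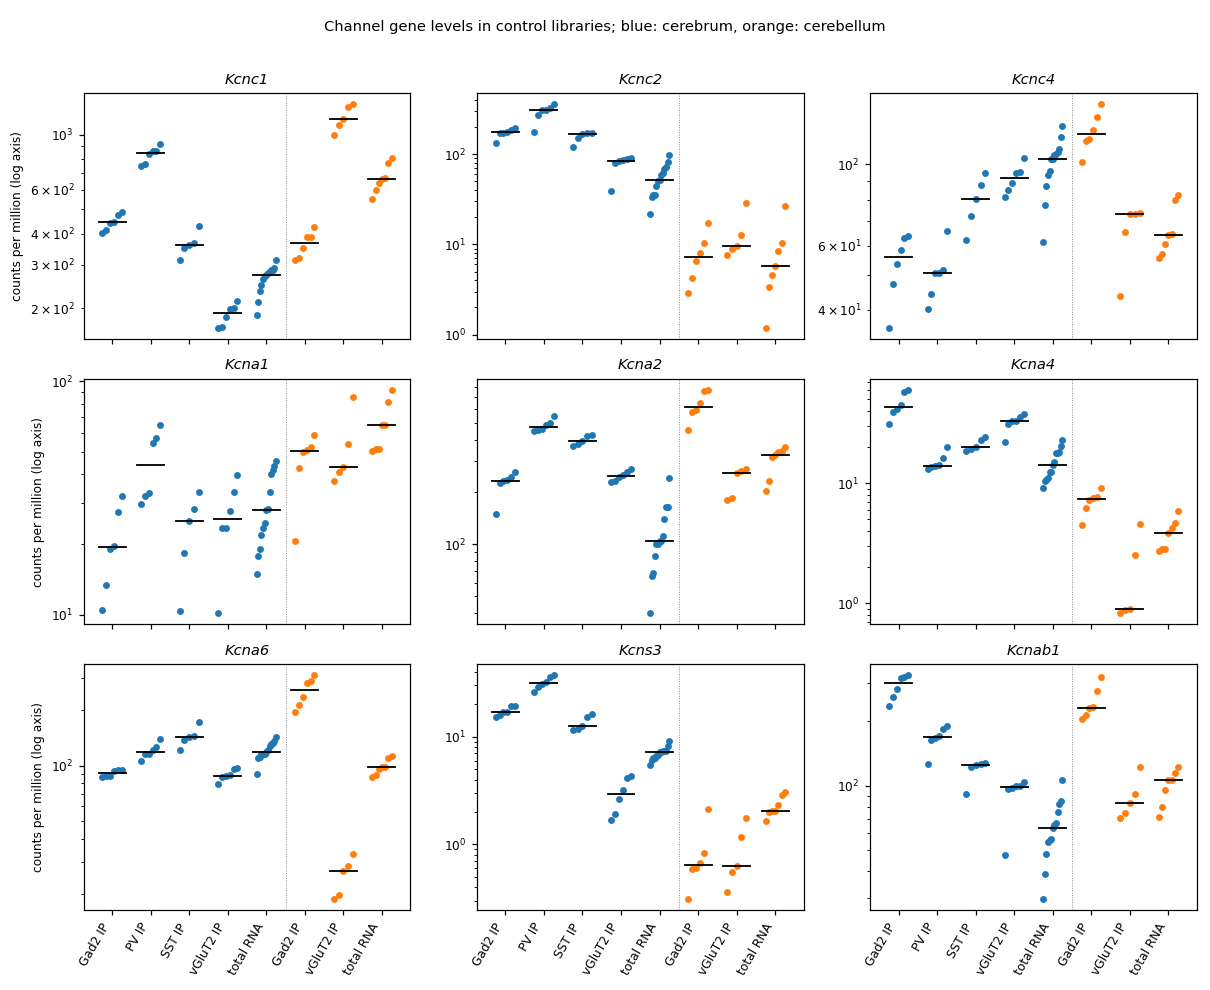
Level of each gene in CPM on a log axis in the 54 control libraries, 1 point per library and a black bar at the median of each of the 8 groups, cerebrum in blue and cerebellum in orange. Kcnc2 and Kcns3 are highest by median in PV IPs, Kcnc1 in cerebellar vGluT2 IPs, Kcna2, Kcna6 and Kcnc4 in cerebellar Gad2 IPs, Kcna4 and Kcnab1 in cerebral Gad2 IPs and Kcna1 in cerebellar total RNA.

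Set side by side per exon length, the mix of subunits differed between IP groups. The long-gene index differed between them too, with control medians of 1.75 in PV, 1.44 in cerebral vGluT2 and 1.14 in cerebral Gad2 IPs. Its part in these orders of long and short genes was not tested. In PV IPs Kcnc1 led at 79.1 to 96.9 with a median of 89.4 CPM per kb, followed by Kcnc2 at 24.7 to 50.7 with a median of 43.5 and Kcna2 at 37.5 to 46.1 with a median of 39.6. Kcnc2 and Kcna2 overlapped there, and all 6 Kcnc1 values lay above both. Kcna6, Kcnab1, Kcnc4, Kcns3 and Kcna1 followed with medians of 20.01, 19.7, 13.7, 9.98 and 9.19, each overlapping with the next, and Kcna4 was last at 2.88. Cerebellar vGluT2 IPs were dominated by Kcnc1 alone, at a median of 122 CPM per kb against 21.6 for Kcna2, the next gene. In cerebellar Gad2 IPs Kcna2 (37.9 to 65.1 with a median of 51.9), Kcna6 (32.8 to 52.2 with a median of 43.5), Kcnc1 (33.1 to 44.9 with a median of 38.9) and Kcnc4 (27.7 to 39.9 with a median of 32.99) overlapped in turn, and Kcnc2 (0.402 to 2.45 with a median of 1.02) was far below them. In cerebral Gad2 IPs Kcnc1 led at a median of 46.9 CPM per kb, Kcnab1 followed at 34.8 and Kcnc2 at 24.5, and in SST IPs Kcnc1 (38.1) overlapped with Kcna2 (33.1). In cerebral vGluT2 IPs Kcnc4, Kcna2 and Kcnc1 overlapped in turn at the top, at medians of 25.1, 20.7 and 20.2 CPM per kb. Among the IP groups, only there did Kcnc4 have the highest median.

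PV IPs were tested against each other cerebral group. The authors describe PV neurons as a subset of the GABAergic ones, so the contrast with Gad2 IPs sets a part against a whole. Against vGluT2 IPs, edgeR's quasi-likelihood F test, Benjamini-Hochberg adjusted called 9 of the 9 genes, 7 higher and 2 lower, where 56.5% of 14759 genes were called. The largest differences in log2 fold change were 3.47 for Kcns3, 2.19 for Kcnc1 and 1.97 for Kcnc2, while Kcnc4 (-0.80) and Kcna4 (-1.02) were lower. Against cerebral Gad2 IPs, the same test called 7 of the 9 genes, 5 higher and 2 lower, where 51.2% of 14759 genes were called. Kcna1 (1.22), Kcna2, Kcnc1 (0.97), Kcns3 (0.96) and Kcna6 (0.48) were higher in PV IPs, Kcnab1 and Kcna4 were lower, and Kcnc2 (0.83, adjusted p = 0.0784) and Kcnc4 (-0.02) were not called. Against SST IPs, it called 4 of the 9 genes, 3 higher and 1 lower, where 15.1% of 14759 genes were called. These were Kcnc1, Kcns3 and Kcna1, higher in PV IPs, and Kcnc4, lower. The 3 contrasts share the same PV IPs. With the mouse as a block, so that IPs of different lines are compared relative to total RNA of the same mice, the counts were 5 against vGluT2 (all genes: 28.7%), 3 against Gad2 (24.4%) and 1 against SST IPs (1.17%), and Kcnc1 is the gene called against SST in that fit. Calls lost with that block were Kcna1 (0.70, adjusted p = 0.399), Kcna4 (-1.26, adjusted p = 0.0681), Kcna6 (0.32, adjusted p = 0.222) and Kcnc2 (1.77, adjusted p = 0.0805) against vGluT2 IPs. Against Gad2 IPs they were Kcna1 (1.28, adjusted p = 0.109), Kcna6 (0.35, adjusted p = 0.185), Kcns3 (0.98, adjusted p = 0.139) and Kcnab1 (-0.60, adjusted p = 0.177), and against SST IPs Kcna1 (0.96, adjusted p = 0.727), Kcns3 (1.44, adjusted p = 0.269) and Kcnc4 (-0.58, adjusted p = 0.395). All kept their sign. With the long-gene index as a covariate Kcna1 lost its call against Gad2 (0.46, adjusted p = 0.0521) and vGluT2 IPs (0.33, adjusted p = 0.134), while against Gad2 IPs Kcna2 was 0.61 and Kcnab1 -1.25, and against vGluT2 IPs Kcna2 was 0.61 and Kcnab1 0.59, all 4 still called. In the fit of only PV and SST IPs the count was 8, where 18.2% of 14596 genes were called, with Kcnc2, Kcna2, Kcnab1 (0.49, adjusted p = 0.0213) and Kcna4 (-0.48, adjusted p = 0.0254) added, and with the index it was 6 (24.1%), with Kcnc2 (0.88, adjusted p = 0.0458) and Kcnab1 (0.50, adjusted p = 0.00291) added. In the fit of only PV and Gad2 IPs Kcnc2 was called too (0.88, adjusted p = 2.34e-04), and with the index Kcnc4 was (0.26, adjusted p = 0.04002).

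Each IP was also tested against total RNA of its region. In PV IPs edgeR's quasi-likelihood F test, Benjamini-Hochberg adjusted called 7 of the 9 genes, 6 higher and 1 lower, where 67.2% of 14759 genes were called. Kcns3 (2.24), Kcna2 (2.11), Kcnc1 (1.72) and Kcnab1 (1.43) and Kcnc2 (2.45) had log2 fold changes above 1, and every PV IP lay above every cerebral total RNA library for Kcnc1, Kcnc2, Kcna2, Kcns3 and Kcnab1. Kcnc4 was lower (-0.92, and -0.41 with the long-gene index as a covariate). Kcna4 (0.07) and Kcna6 (0.06) were not called, Kcna4 apart from the fit with that covariate (-0.85). The long-gene index was higher in every PV IP than in 12 of the 13 total RNA libraries, and with it as a covariate, an alternative chosen after seeing the data, Kcnc2 came to 1.1, Kcna2 to 1.18 and Kcnab1 to 0.54, all 3 still called. Kcna1 (0.67, adjusted p = 0.0178) turned to -0.75 (adjusted p = 0.00574) with that covariate. Its call was also lost with the mouse as a block (0.60, adjusted p = 0.277), without PV replicate 1 (0.50, adjusted p = 0.1005) without PV replicate 2 (0.59, adjusted p = 0.052) and with total RNA of the PV line alone (0.80, adjusted p = 0.0595), so that no direction is given for Kcna1 here.

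The other IPs gave the following counts by the same test. Cerebral Gad2 IPs had 8 of the 9 genes, 6 higher and 2 lower, where 64% of 14759 genes were called, with Kcnab1 (2.15), Kcnc2 (1.62) and Kcna4 (1.6) at the top and Kcnc4 (-0.91) and Kcna6 (-0.42) lower. With total RNA of the Gad2 line alone, Kcna2 (0.60, adjusted p = 0.157) and Kcna6 (-0.25, adjusted p = 0.131) lost their calls. SST IPs had 7 of the 9 genes, 7 higher and 0 lower, where 63.6% of 14759 genes were called, led by Kcna2 (1.84) and Kcnc2 (1.55). Kcnc4 (-0.26, adjusted p = 0.055) was not called there. It was called lower in many fits with 1 library left out, as without SST replicate 3 (-0.42, adjusted p = 0.00806). In the SST contrast the covariate took Kcnc2 to 0.22 and Kcnab1 from 0.94 to 0.03, while Kcna2 was 0.88, Kcns3 0.57, adjusted p = 0.1203, and Kcna4 turned from 0.55 to -0.38. The count was 4 with the covariate (all genes: 31.6%) and 4 with the mouse as a block (46.7%), where Kcna4 (0.63, adjusted p = 0.1804), Kcna6 (0.28, adjusted p = 0.1198) and Kcns3 (0.72, adjusted p = 0.121) were not called. Kcna6 (0.32) also lost its call without SST replicate 3 (0.17, adjusted p = 0.169) or 4 (0.23, adjusted p = 0.05903). Kcna4 lost it without any 1 of cerebral Gad2 IP replicate 1 (0.48) or 4 (0.48), cerebral Gad2 total RNA replicate 3 (0.51), PV IP replicate 5 (0.48), SST IP replicate 1 (0.49) or 2 (0.57) or 3 (0.53) or 4 (0.45) or 6 (0.42), cerebellar vGluT2 total RNA replicate 2 (0.48) or 3 (0.48), cerebral vGluT2 IP replicate 3 (0.48) or 5 (0.48) and cerebral vGluT2 total RNA replicate 2 (0.53). Cerebral vGluT2 IPs had 6 of the 9 genes, 3 higher and 3 lower, where 64.5% of 14759 genes were called, Kcna4 (1.1) and Kcna2 (1.09) being the highest and Kcns3 (-1.24) the lowest. With the covariate Kcna4 was 0.54 and Kcna2 0.57, both still called. Kcnab1 (0.49) lost its call there without vGluT2 replicate 2 (0.40, adjusted p = 0.06) and was -0.06 with the covariate. Kcnab1 also lost it with total RNA of the same line alone (0.61, adjusted p = 0.0802) and in a fit of only the contrasted groups (0.48, adjusted p = 0.0783), and Kcna6 with the mouse as a block (-0.28, adjusted p = 0.0625). Cerebellar Gad2 IPs had 7 of the 9 genes, 5 higher and 2 lower, where 58.4% of 14759 genes were called, among them Kcna6 (1.3) and Kcnab1 (1.23) above and Kcnc1 (-0.94) below total RNA. Cerebellar vGluT2 IPs had 4 of the 9 genes, 1 higher and 3 lower, where 56% of 14759 genes were called. Kcnc1 (0.70) was higher and Kcna6 (-2.07), Kcns3 (-1.44) and Kcna4 (-1.09) were lower. Kcna4 was -1.71 without vGluT2 replicate 5 and not called with total RNA of the same line alone (-1.27, adjusted p = 0.0513). In that last fit Kcna2 (-0.72, adjusted p = 0.00155) and Kcnab1 (-0.48, adjusted p = 0.0272) were called lower. Kcna2 was called lower as well with DESeq2 (-0.52, adjusted p = 0.0493) and with library totals (-0.58, adjusted p = 0.046). It was so too with only the contrasted groups (-0.54, adjusted p = 0.0172) and in some fits with 1 library left out. Kcnc2 was called higher with the mouse as a block (1.2, adjusted p = 0.0472) and without vGluT2 total RNA replicate 4 (1.16, adjusted p = 0.00816). The covariate raised the count of 4 to 7 (all genes: 64.3%). The covariate also called Kcna1, which had not been called in the 5 IPs of this paragraph, lower in each, from -1.79 in SST to -0.70 in cerebellar Gad2 IPs. Kcna1 was also called lower in cerebral Gad2 IPs with DESeq2 (-0.58, adjusted p = 0.0371) and in some fits with 1 library left out. In cerebellar Gad2 IPs it was so with library totals (-0.70, adjusted p = 0.0423) and with only the contrasted groups (-0.57, adjusted p = 0.0344). With 56% or more of all genes called in each of these contrasts, a call alone says little about the 9 genes.

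Between cell types of the cerebellum, Gad2 minus vGluT2 IPs gave 6 of the 9 genes, 5 higher and 1 lower, where 55.6% of 14759 genes were called (same test). Kcna6, Kcna4, Kcnab1 (1.52), Kcna2 (1.5) and Kcnc4 (0.95) were higher in Gad2 IPs, and Kcnc1 (-1.64) was higher in vGluT2 IPs. Between regions, cerebellar minus cerebral Gad2 IPs gave 8 of the 9 genes, 4 higher and 4 lower, where 53.3% of 14759 genes were called. Kcna2 (1.5), Kcna6 (1.48), Kcnc4 (1.2) and Kcna1 (1.16) were higher in the cerebellum, and Kcnc2, Kcns3 (-4.37), Kcna4 (-2.7) and Kcnc1 (-0.29) in the cerebrum. For vGluT2 IPs, cerebellum minus cerebrum gave 7 of the 9 genes, 2 higher and 5 lower, where 60.7% of 14759 genes were called. Kcnc1 (2.57) and Kcna1 (0.92) were higher in the cerebellum, the latter not without cerebellar vGluT2 replicate 2 (0.66, adjusted p = 0.0771), and Kcna4 (-4.09) and Kcnc2 (-2.57) differed most in the other direction, Kcna4 at -4.71 without cerebellar vGluT2 replicate 5. With the long-gene index as a covariate Kcna2 (-0.54, adjusted p = 0.00237) and Kcnab1 (-0.40, adjusted p = 0.00836) were called too, so that 9 members were (all genes: 66.4%). For Gad2 IPs between regions the covariate added Kcnab1 (-0.51, adjusted p = 4.62e-04), again giving 9 (59.2%).

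The remaining Kv family genes, and 2 further lists, show the setting of these levels. Of 25 other Kv genes, 21 passed the filter, and PV minus SST IPs, where 15.1% of all genes were called, gave 6 higher and 1 lower of 21, with Kcng4 (2.26) and Kcnab3 (1.27) among the highest and Kcnf1 (-0.73) lower. Their median log2 fold change was -0.17, against -0.04 over all genes and 0.49 over the 9 genes. Of 12 genes known from fast-spiking neurons, the same contrast gave 10 higher and 0 lower of 12, led by Pvalb (2.08), the synaptotagmin gene Syt2 (1.83) and Pthlh (1.66), with a median of 1.16. Of 12 genes whose products bind or cluster Kv1 channels at axons and synapses, it gave 3 higher and 1 lower of 12, namely Lgi2 (0.87), Lgi3 (0.65) and Adam23 (0.53) above and Lgi1 (-0.57) below, with a median of -0.10. Against cerebral Gad2 IPs (51.2% of all genes), PV IPs had 9 higher and 2 lower of 21 other Kv genes, 8 higher and 1 lower of 12 fast-spiking genes and 5 higher and 3 lower of 12 Kv1 complex genes. Against cerebral vGluT2 IPs (56.5% of all genes) the counts were 7 higher and 6 lower of 21, 11 higher and 0 lower of 12 and 6 higher and 4 lower of 12 in the same order of lists. With the mouse as a block, the genes called in that order of lists numbered 2, 5 and 1 against SST IPs (all genes: 1.17%). Against Gad2 IPs that block gave 7, 8 and 5 (24.4%), and against vGluT2 IPs 7, 10 and 6 (28.7%). In the cerebellum, Gad2 minus vGluT2 IPs (55.6% of all genes) gave 13 higher and 3 lower of 21 other Kv genes, with Kcng4 (3.47) highest and Kcnb2 (-2.29) lowest. Kcng4 encodes another silent subunit of Kv2 channels.

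Genes whose pattern was most like that of each member were found by Pearson's r of log2(CPM + 1) over the 34 control IP libraries, among 14759 genes. The libraries share cell type, region and mouse within groups, so r is given as a description. The nearest genes were Cntnap4 (0.94), Syde1 (0.92) and Pxk (0.90) for Kcnc1, Galntl6 (0.96), Tmem44 (0.95) and BC030500 (0.95) for Kcnc2 and Orai2 (0.94), Fah (0.92) and Orai3 (0.90) for Kcnc4. For Kcns3 they were Akr1c18 (0.96), Moxd1 (0.96) and C1qtnf1 (0.96). Among the Kv1 genes they were Tbc1d8b (0.89), Gabrb2 (0.88) and Klf12 (0.86) for Kcna1, Elovl6 (0.92) and Ptpn13 (0.91) for Kcna2, Gucy1a1 (0.97), Shroom2 (0.97) and Sh3kbp1 (0.97) for Kcna4 and Spns2 (0.97), Grik3 (0.96) and Masp1 (0.95) for Kcna6. For Kcnab1 they were Pbx3 (0.93), Nt5e (0.91) and Dach1 (0.89). Among the members themselves, Kcnc2 ran closest to Kcns3 (r = 0.93) and Kcna2 to Kcna6 (0.75), whereas Kcna1 and its chromosomal neighbour Kcna6 showed r = -0.09 and Kcnc1 and Kcnc2 r = -0.05. Over means of the 6 groups in place of libraries, 5 of the 27 genes that rank nearest, 3 per member, ranked nearest again.

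The second question was what the HD allele did to these genes in each cell type. A lower level in an IP can come from less RNA per tagged cell or from less of that RNA on ribosomes. It can also come from fewer of the cells that carry the gene. In these bulk samples such sources cannot be told apart. In PV IPs none of the 9 genes was called. Kcnc1 measured 748 to 916 with a median of 846 CPM in control and 716, 732, 734, 773 and 839.7 in HD IPs, and the groups overlapped although all 5 HD values lay below the control median. Its log2 fold change, HD over control, was -0.15 (standard error 0.07), with a 95% interval of -0.30 to 0.00 and an adjusted p of 1.0 by edgeR's quasi-likelihood F test, Benjamini-Hochberg adjusted. Kcnc2 measured 221, 303, 329, 333 and 339 in HD IPs, inside its control range, and its log2 fold change of 0.05 (standard error 0.18) had an interval of -0.34 to 0.43. For Kcna2, HD IPs held 438, 459.5, 477, 482 and 482, with a log2 fold change of -0.06 (standard error 0.07) and an interval of -0.22 to 0.10. Kcna1 spread widely in both genotypes, with HD values of 22.6, 36.5, 42.4, 59.9 and 60.04, and its log2 fold change was -0.05 (standard error 0.28) with an interval of -0.65 to 0.54. The sign of Kcnc2 turned without control replicate 6 (-0.07). That of Kcna1 turned without control replicate 1 (0.09), 2 (0.03) or 3 (0.00) and without HD replicate 2 (0.02) or 5 (0.11). With the replicate number as a block, in a fit that also left out the HD library sequenced again, Kcnc2 was -0.10 and Kcna2 0.02. The lowest value of Kcna1 among the alternatives other than left-out libraries was -0.40. No direction is given for these 3 genes. The other 5 members had log2 fold changes between -0.17 (Kcna4) and 0.00 (Kcnab1 and Kcns3). Thus edgeR called 0 of 9, where 0.034% of 14713 genes were called, with 0 at an unadjusted p under 0.05 and 0 called by DESeq2. No member separated HD from control IPs completely, as 0.469% of all genes did. The median of the 9 log2 fold changes was -0.05, against 0.00 over all genes. Of the 21 other Kv genes, 12 Kv1 complex genes and 12 fast-spiking genes tested, edgeR called 0, 0 and 0 (DESeq2 0, 0 and 0), with 3, 1 and 1 at an unadjusted p under 0.05 and medians of -0.09, -0.08 and -0.02. Of all 14713 genes, 630 had an unadjusted p under 0.05. HD replicate 3, the PV library with high Purkinje gene levels, held 734 CPM of Kcnc1 and 477 of Kcna2, both within the range of the other HD PV IPs.

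Cerebral Gad2 IPs, which include striatal projection neurons, showed the largest shift of Kcnab1 among the IPs. It measured 234 to 325 with a median of 299 CPM in control and 119.5 to 236 with a median of 188 in HD IPs, and of the HD values only the highest lay inside the control range. The log2 fold change was -0.70 (standard error 0.18), with an interval of -1.08 to -0.31, an unadjusted p of 0.00161 and an adjusted p of 0.317 by edgeR's quasi-likelihood F test, Benjamini-Hochberg adjusted. DESeq2 gave -0.69 with an adjusted p of 0.0473 (all genes: 0.523% called), so the call depended on the tool. Kcnc2 measured 134 to 194 with a median of 175 in control and 113 to 160.5 with a median of 147 in HD IPs, overlapping, with a log2 fold change of -0.32 (standard error 0.12), an unadjusted p of 0.0171 and an adjusted p of 0.536. The other 7 members ran from -0.69 (Kcna1) to 0.25 (Kcnc4). In sum edgeR called 0 of 9, where 0.0279% of 14342 genes were called. At an unadjusted p under 0.05 stood 2 members, beside 1313 of all genes, and DESeq2 called 1 member. No member separated the genotypes completely (0.551% of all genes did). The members' median was -0.22, against -0.01 over all genes. Alongside, the summed level of 5 striatal projection neuron genes, with Ppp1r1b the most abundant, was 4025 to 5509 with a median of 4571 CPM in control and 2169.6 to 4038 with a median of 2999.7 in HD IPs, and the median log2 fold change of long genes was -0.15. The part of the striatal genes in the Kcnab1 value was not tested. With the long-gene index as a covariate, an alternative chosen after seeing the data, Kcnab1 was -0.54 (adjusted p = 0.0836). Of the 21 other Kv genes, 12 Kv1 complex genes and 12 fast-spiking genes tested, edgeR called 0, 0 and 0 (DESeq2 1, 0 and 1), with 5, 2 and 2 at an unadjusted p under 0.05 and medians of -0.03, -0.12 and -0.12.

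SST IPs showed the only complete separation of a member in the IPs. Kcna2 measured 369, 378, 394, 419.6 and 426 CPM in the 5 control and 338, 339, 353 and 361 in the 4 HD IPs, so that every HD IP lay below every control IP. The difference was small, a log2 fold change of -0.19 (standard error 0.12) with an interval of -0.46 to 0.08, and edgeR's quasi-likelihood F test, Benjamini-Hochberg adjusted gave it an adjusted p of 1.0. Of the 5 control IPs 3 carry another mouse label prefix than all HD IPs of the line, and without them the log2 fold change was -0.13 (adjusted p = 1.0). Across all genes 0.708% separated the genotypes in this way, against 1 of 9 members. Kcna1 was lowest by fold change, at -0.57, and Kcna6 highest, at 0.01. By edgeR 0 of 9 were called, as were 0% of 14689 genes, with 0 at an unadjusted p under 0.05 and 0 called by DESeq2. The median over the 9 genes was -0.16 and over all genes 0.01. Of the 21 other Kv genes, 12 Kv1 complex genes and 12 fast-spiking genes tested, edgeR called 0, 0 and 0 (DESeq2 0, 0 and 0), with 0, 0 and 2 at an unadjusted p under 0.05 and medians of -0.11, -0.18 and -0.18. Of all 14689 genes, 207 had an unadjusted p under 0.05.

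In cerebral vGluT2 IPs Kcna1 measured 10.2 to 39.8 with a median of 25.6 CPM in control and 7.298 to 21.2 with a median of 14.8 in HD mice. All HD values lay below 5 of the 6 control values, and the lowest control IP fell among them. The log2 fold change was -0.78 (standard error 0.30) with an interval of -1.41 to -0.14, an unadjusted p of 0.0198 and an adjusted p of 0.677 by edgeR's quasi-likelihood F test, Benjamini-Hochberg adjusted. With the long-gene index as a covariate, an alternative chosen after seeing the data, it was -0.26 (adjusted p = 0.999). Other members lay between -0.27 (Kcnab1) and 0.08 (Kcnc1). Of the 9, edgeR called 0 (0.00697% of 14354 genes) and 1 had an unadjusted p under 0.05 (1045 of all genes). DESeq2 called 0 members, and 0 separated the genotypes (0.634% of all genes). Members had a median of -0.17, all genes of -0.02 and long genes of -0.12. Of the 21 other Kv genes, 12 Kv1 complex genes and 12 fast-spiking genes tested, edgeR called 0, 0 and 0 (DESeq2 0, 0 and 0), with 5, 2 and 2 at an unadjusted p under 0.05 and medians of -0.02, -0.21 and 0.02.

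Cerebellar Gad2 IPs, rich in Purkinje cell mRNA, gave intervals around 0 for all 9 genes. Kcna2 measured 451 to 775 with a median of 617 CPM in control and 485 to 701 with a median of 626 in HD IPs, with a log2 fold change of -0.07 (standard error 0.14) and an interval of -0.37 to 0.24. Kcnc1 measured 313 to 424 with a median of 368 and 335 to 361 with a median of 341, with -0.10 (standard error 0.10) and an interval of -0.31 to 0.12. For both, the HD values lay within the control range. Kcna1 measured 20.6 to 58.96 with a median of 50.1 and 19.3 to 56.7 with a median of 46.03, with -0.13 (standard error 0.26) and an interval of -0.70 to 0.43. Kcnc2, low in both genotypes (2.87 to 17.5 with a median of 7.25 against 5.297 to 18.6 with a median of 10.1), had a log2 fold change of 0.27 (standard error 0.40) and an interval of -0.58 to 1.12. The signs turned without control replicate 5 for Kcna2 (0.02), without HD replicate 4 for Kcna1 (0.02) and without HD replicate 2 for Kcnc2 (-0.01), so none is read as a direction. The remaining members ran from -0.17 (Kcnab1) to -0.01 (Kcnc4). By edgeR's quasi-likelihood F test, Benjamini-Hochberg adjusted, 0 of 9 were called (0.0142% of 14098 genes), with 0 at an unadjusted p under 0.05, 0 called by DESeq2 and 0 separated by genotype (0.284% of all genes). The median over members was -0.10, and 0.00 over all genes. Of the 20 other Kv genes, 12 Kv1 complex genes and 11 fast-spiking genes tested, edgeR called 0, 0 and 0 (DESeq2 0, 0 and 0), with 2, 0 and 0 at an unadjusted p under 0.05 and medians of -0.04, 0.00 and -0.03. Of all 14098 genes, 324 had an unadjusted p under 0.05.

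Cerebellar vGluT2 IPs had the largest number of called genes among the IPs. Kcnc1, their leading member, measured 998, 1090.2, 1156, 1296 and 1328 CPM in control and 844 to 1059 with a median of 951 in HD IPs. Of the 6 HD values 3 lay below every control value and the others inside the lower part of the control range. The log2 fold change was -0.28 (standard error 0.10) with an interval of -0.49 to -0.07, an unadjusted p of 0.0128 and an adjusted p of 0.185 by edgeR's quasi-likelihood F test, Benjamini-Hochberg adjusted. When all IP libraries shared 1 fit it was -0.32 with an adjusted p of 0.0228 (all genes: 3.74% called), so the call depended on the fit. Kcna1 measured 37.2, 40.8, 42.98, 53.7 and 85.9 in control and 19.7 to 57.2 with a median of 30.6 in HD IPs, overlapping, with -0.51 (standard error 0.29) and an adjusted p of 0.428. With the long-gene index as a covariate, an alternative chosen after seeing the data, Kcna1 was called, at -0.70 with an adjusted p of 0.0473 (all genes: 4.92% called). The other 7 members ran from -0.85 (Kcnc2) to 0.31 (Kcnab1). The Kcnc2 value changed with single libraries, to -1.46 without HD replicate 5 and -0.33 without control replicate 5. These 2 libraries also held the highest levels of their groups of Slc17a6 (109 and 70.4 CPM in control and HD), of 3 SST interneuron genes summed (65.01 and 18.8) and of 3 genes of other interneurons (42.5 and 10.3), and what set them apart was not tested. In total edgeR called 0 of 9, where 2.11% of 13487 genes were called, with 1 at an unadjusted p under 0.05 and 0 called by DESeq2, and 0 separated the genotypes, as 3.74% of all genes did. Their median of -0.28 compares with -0.01 over all genes. Of the 19 other Kv genes, 12 Kv1 complex genes and 11 fast-spiking genes tested, edgeR called 1, 0 and 0 (DESeq2 3, 0 and 0), with 6, 4 and 1 at an unadjusted p under 0.05 and medians of -0.11, -0.13 and -0.04. The 1 other Kv gene called by edgeR was lower in HD IPs (adjusted p = 0.0356). Of all 13487 genes DESeq2 called 4.93%, and 2090 had an unadjusted p under 0.05 by edgeR. The summed level of 3 granule cell genes, with Gabra6 the most abundant in controls, was 2522 to 3575 with a median of 3243 CPM in control and 1414 to 2772 with a median of 2238 in HD IPs, and its part in these values was not tested.

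**Figure D2:**
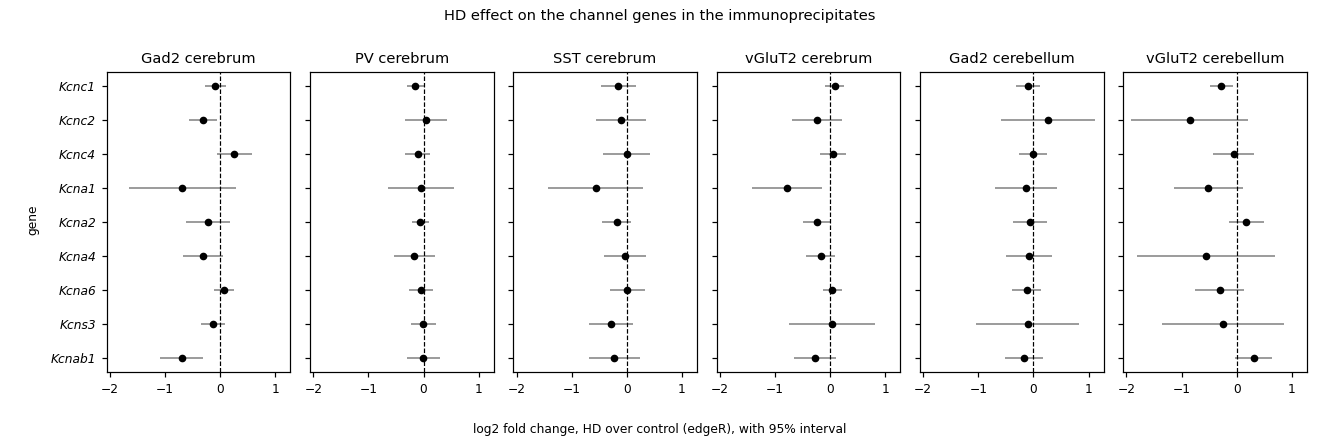
Log2 fold change of each gene, HD over control, with its 95% interval from edgeR in the 6 IP groups, and a dashed line at 0. None of the 9 genes passed an adjusted p of 0.05 in any group, and the values of largest size are those of Kcnc2 in cerebellar vGluT2 IPs, which changed with single libraries, Kcna1 in cerebral vGluT2 IPs and Kcnab1 in cerebral Gad2 IPs.

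Whether HD effects differed between cell types was tested as a difference of log2 fold changes over all 67 IP libraries, by edgeR's quasi-likelihood F test, Benjamini-Hochberg adjusted. For PV minus cerebral Gad2, edgeR called 0 of 9, with 1 at an unadjusted p under 0.05 and 0 by DESeq2. Of 14648 genes, 0% were called and 367 had an unadjusted p under 0.05. Among the members Kcnab1 came closest, with a difference of 0.66 (standard error 0.25) and an unadjusted p of 0.0109 (adjusted p = 0.997). For PV minus SST it called 0 of 9, with 0 at an unadjusted p under 0.05 and 0 by DESeq2, where 0% of 14648 genes were called. For PV minus cerebral vGluT2 the result was 0 of 9, with 0 at an unadjusted p under 0.05 and 0 by DESeq2, where 0% of 14648 genes were called. No difference between PV and another cerebral IP passed the threshold, and the widest interval among them, -0.64 to 1.66 for Kcna1 against SST, also covers large differences. In the cerebellum, vGluT2 minus Gad2 gave 0 of 9, with 2 at an unadjusted p under 0.05 and 0 by DESeq2. Of 14648 genes, 0.492% were called and 1317 had an unadjusted p under 0.05. The 2 members were Kcnc2 at -1.2 (standard error 0.48, adjusted p = 0.377) and Kcnc1 at -0.27 (standard error 0.12, adjusted p = 0.472). Kcnc1 ran from -0.30 to -0.17 with each library left out. Of the cerebellar vGluT2 IPs, replicate 5 of either genotype had the highest Kcnc2 level. Without the HD one the Kcnc2 difference was -1.76 and was called (adjusted p = 0.0224), and without the control one it was -0.70 (adjusted p = 0.751), the ends of the range with each library left out. Between regions, cerebellar minus cerebral Gad2 gave 0 of 9, with 1 at an unadjusted p under 0.05 and 0 by DESeq2. Of 14648 genes, 0.0478% were called and 973 had an unadjusted p under 0.05. The 1 member was Kcnab1, at 0.54 (standard error 0.25, adjusted p = 0.746). For vGluT2, cerebellum minus cerebrum gave 0 of 9, with 4 at an unadjusted p under 0.05 and 0 by DESeq2. Of 14648 genes, 0.594% were called and 1227 had an unadjusted p under 0.05. Kcnc1 had the smallest unadjusted p of the 4 members, 0.00225, at -0.39 (standard error 0.12, adjusted p = 0.165). It was followed by Kcnab1 (0.55, and 0.31 with the long-gene index as a covariate), Kcna6 (-0.38) and Kcna2 (0.38). These contrasts share IP groups with each other. The cerebellar and cerebral IPs of the Gad2 and vGluT2 lines also share mice. With the mouse as a block, an alternative chosen after seeing the data, 0 members were called for Gad2 (all genes: 0%) and 0 for vGluT2 (0.345%), with Kcnab1 at 0.55 and Kcnc1 at -0.34 (adjusted p = 0.669 and 0.376). Of 21 other Kv genes tested, edgeR called 1 lower for vGluT2 minus Gad2 in the cerebellum, 1 higher and 1 lower for vGluT2 between regions and 0 in the other differences. The higher one was Kcns2, a silent subunit gene (0.88). Of the Kv1 complex and fast-spiking genes edgeR called 0 in any difference. DESeq2 called 1 fast-spiking gene for vGluT2 minus Gad2 in the cerebellum (all genes: 0.997%) and 1 for vGluT2 between regions (1.06%).

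Total RNA holds all cells of the tissue, and in the cerebrum none of the 9 genes passed the threshold in any line. In the Gad2 line edgeR called 0 of 9 (0% of 14880 genes), 0 had an unadjusted p under 0.05 and DESeq2 called 0, and no member separated the genotypes (2.26% of all genes). The members ran from -0.28 (Kcna1) to 0.04 (Kcna4). In the PV line edgeR called 0 of 9 (0.00672% of 14880 genes), 0 had an unadjusted p under 0.05 and DESeq2 called 0, with 0 members separated (6.61% of all genes). Here Kcna1 was lowest (-0.54) and Kcna4 highest (0.15). In the SST line edgeR called 0 of 9 (0% of 14880 genes), 1 had an unadjusted p under 0.05 (408 of all genes) and DESeq2 called 0. That gene, Kcns3, measured 6.3, 7.16, 7.19 and 9.18 CPM in the 4 control and 4.45, 5.04 and 5.102 in the 3 HD libraries, every HD library below every control one. Its log2 fold change was -0.62 (standard error 0.17), with an unadjusted p of 0.00179 and an adjusted p of 0.783 by edgeR's quasi-likelihood F test, Benjamini-Hochberg adjusted. Of the 4 control libraries 2 carry another mouse label prefix than all HD libraries, and its part was not tested. Kcns3 was the 1 member separated there, as were 3.7% of all genes. In the vGluT2 line edgeR called 0 of 9 (0.00672% of 14880 genes), 0 had an unadjusted p under 0.05 and DESeq2 called 0, and 1 member was separated, beside 11.9% of all genes. That was Kcnc1, at 262, 285 and 313 in control and 180.5, 236 and 241 in HD libraries, with a log2 fold change of -0.32 (standard error 0.16) and an adjusted p of 0.624. Kcnc2 (0.63), Kcna4 (0.63) and Kcna2 (0.61) had the largest values there, and long genes had a median of 0.35.

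Averaged over the 4 lines, cerebral total RNA offered 25 libraries. In the same test edgeR called 0 of 9 (0.497% of 14880 genes), and DESeq2 called 0 (1.27%). At an unadjusted p under 0.05 by edgeR stood 2 members (999 of all genes). Those were Kcnc1, at -0.19 (standard error 0.08) with an unadjusted p of 0.0231 and an adjusted p of 0.5596, and Kcns3, at -0.21 (standard error 0.09) with 0.0303 and 0.618. Without the SST line Kcns3 was -0.06 (adjusted p = 0.869) and Kcnc1 -0.22. Over the pooled lines Kcnc1 ran from 187 to 313 with a median of 273 CPM in 13 control and from 177 to 264 with a median of 240.0 in 12 HD libraries, and the groups overlapped widely. A summed list of 3 PV interneuron genes, led by Syt2, was lower too, at 269 to 480.0 with a median of 384 CPM in control and 185 to 424 with a median of 285 in HD libraries, and its part in these values was not tested. The remaining members lay between -0.28 (Kcna1) and 0.16 (Kcna4), with a median of -0.08 over the 9 genes and 0.02 over all genes. Of the 21 other Kv genes, 12 Kv1 complex genes and 12 fast-spiking genes tested, edgeR called 0, 0 and 1 (DESeq2 0, 1 and 1), with 2, 2 and 3 at an unadjusted p under 0.05 and medians of -0.03, -0.01 and -0.17. The 1 called fast-spiking gene was Scn4b, which encodes a sodium channel beta subunit that striatal neurons also express, at -0.79 (adjusted p = 4.29e-06). It was called as well in the PV line (-0.99) and in the vGluT2 line (-0.89), whose libraries enter that mean. Neither line had a called fast-spiking gene with the replicate number as a block or without the SST line, nor had the vGluT2 line with library totals in place of TMM or without the filter on low counts. The mean had 1 called fast-spiking gene in all 4 of these fits. The sum of the 5 striatal projection neuron genes was 564 to 1693 with a median of 1071 CPM in control and 332 to 946 with a median of 594 in HD libraries, and in the vGluT2 line 888 to 1257 and 448 to 634. Its part in the Scn4b value was not tested.

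In cerebellar total RNA the lines differed. In the Gad2 line, edgeR called 0 of 9 (0.0484% of 14477 genes), with 0 at an unadjusted p under 0.05 and 0 called by DESeq2. Kcna6 measured 98.1, 98.7 and 113 CPM in control and 80.3, 82.2 and 92.7 in HD libraries, with a log2 fold change of -0.26 (standard error 0.17) and an adjusted p of 1.0. Kcns3 measured 2.0005, 2.05 and 2.896 and 1.41, 1.82 and 1.996, with -0.40 (standard error 0.30) and an adjusted p of 1.0, and ran from -0.56 to -0.15 with each library left out. These 2 members were separated by genotype, all HD below all control values, as were 5.3% of all genes. All 9 log2 fold changes were negative, from -0.47 (Kcnc2) to -0.03 (Kcnc4), with a median of -0.26 against 0.02 over all genes. Summed marker levels were lower in HD as well, without overlap, for 3 Purkinje genes (2111 to 2436 CPM in control and 1835 to 1910.1 in HD libraries), 5 oligodendrocyte genes (3657 to 4270.2 and 2721 to 2915) and GABAergic genes (751 to 805 and 621 to 708), and their part in the members' values was not tested. Of the 20 other Kv genes, 12 Kv1 complex genes and 11 fast-spiking genes tested, edgeR called 0, 0 and 0 (DESeq2 0, 0 and 0), with 3, 0 and 0 at an unadjusted p under 0.05 and medians of -0.22, -0.09 and 0.01. Of all 14477 genes, 455 had an unadjusted p under 0.05.

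In the vGluT2 line 5 of 9 members were called by edgeR's quasi-likelihood F test, Benjamini-Hochberg adjusted, 1 higher and 4 lower. Of 14477 genes 48.8% were called, and DESeq2 called 5 members (all genes: 52%). The 5 members called by edgeR were also those separated by genotype, as 49.6% of all genes were. Kcna2 measured 318, 326, 345 and 364 CPM in control and 124, 130.4, 137 and 172 in HD libraries, and its log2 fold change was -1.39 (standard error 0.25, adjusted p = 0.00111). Kcnab1 measured 95.3, 107, 115 and 121 and 48.3, 53.6, 58.1 and 64.2, with -1.1 (standard error 0.23, adjusted p = 0.00236). For both genes the HD values stood far below the control ones. Kcna4 measured 2.84, 3.82, 4.27 and 5.93 and 2.07, 2.18, 2.53 and 2.65, with -0.97 (standard error 0.27, adjusted p = 0.00973). Kcna1 measured 50.2, 64.7, 64.8 and 81.3 and 32.7, 35.3, 40.96 and 41.02, with -0.93 (standard error 0.26, adjusted p = 0.0105). Kv1 genes other than Kcna6 were thus lower in every HD library. Kcnc4 measured 55.6, 56.996, 60.7 and 64.7 and 73.8, 89.7, 93.2 and 104, with 0.47 (standard error 0.14, adjusted p = 0.01496), and was higher in every HD library, a call lost with library totals in place of TMM (0.34, adjusted p = 0.108). With the replicate number as a block (all genes: 34.6%), Kcnc4 (0.46, adjusted p = 0.0621) and Kcna4 (-0.92, adjusted p = 0.0509) lost their calls. Kcnc1 (0.02), Kcnc2 (-1.33), Kcna6 (0.23) and Kcns3 (-0.22) were not called. The share of members called was close to that of all genes, so it is not a result about these genes.

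Other measures of the same 8 libraries moved with the genotype. The long-gene index was 1.4, 1.6, 1.66 and 1.71 in control and 0.48, 0.64, 0.91 and 0.91 in HD libraries, without overlap, and long genes had a median log2 fold change of -0.60 against 0.34 for short genes. With the index as a covariate, an alternative chosen after seeing the data, edgeR called 0 members (all genes: 5.46%), with Kcna2 at -0.52 (adjusted p = 0.0718), Kcnab1 at -0.31 (0.319), Kcna4 at -0.38 (0.5597), Kcna1 at -0.03 (0.946) and Kcnc4 at 0.09 (0.764). Since the index separates the genotypes here, its effect and that of HD cannot be told apart in this line. Summed marker levels moved too. Microglial genes, 5 with Csf1r the most abundant, summed to 63.4 to 72.2 with a median of 69.2 CPM in control and 104 to 119.7 with a median of 107.8 in HD libraries. Purkinje genes, 3 with Car8 the most abundant, summed to 2133 to 2472 with a median of 2321 and 1283 to 1932 with a median of 1839.6. Oligodendrocyte genes summed to 4095 to 4824 and 2890.4 to 4061 and were lower in HD too. Higher in HD were 4 lists made for cerebral cells, which do not mark those cells in the cerebellum. They were led by Slc17a7 (437 to 745 and 1234 to 1391), which averaged 1361 ± 222 (SD, n = 5) in control cerebellar vGluT2 IPs, by Pvalb (1378 to 1805 and 1971 to 2669), which averaged 3715 ± 1019 (SD, n = 6) in control cerebellar Gad2 IPs, by Ppp1r1b (297 to 364 and 403 to 484) and by Cck (26.7 to 40.1 and 40.6 to 70.7). All 7 of these lists were separated by genotype. Granule cell genes summed to 1019.6 to 1673 with a median of 1307 and 518 to 1075 with a median of 734, overlapping. The part of these cell type markers in the members' values was not tested. In the Gad2 line the index was 0.98, 1.02 and 1.77 in control and 0.66, 1.07 and 1.76 in HD libraries, and the 3 libraries of each genotype overlapped.

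The lists moved in both directions in that line, where 48.8% of all genes were called. Of 20 other Kv genes 4 were called higher and 5 lower, with Kcnq3 (-2.33), Kcna3 (-2.15) and Kcnd2 (-1.4) lowest and Kcnd1 (0.86) and Kcnab2 (0.76) among the highest, and their median was -0.15. Of 12 Kv1 complex genes 2 were called higher and 6 lower, with Adam22 (-1.54), Lgi2 (-1.18) and Lgi1 (-1.17) lowest and Dlg4 (0.67) and Lgi3 (0.51) higher, and a median of -0.52. Of 11 fast-spiking genes 3 were called in each direction, with the sodium channel gene Scn1a (-2.09) lowest and the complexin gene Cplx1 (0.78) highest, and a median of 0.01. The median over the 9 members was -0.93, and over all genes 0.00.

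The mean of the cerebellar lines carried this pattern over. By edgeR's quasi-likelihood F test, Benjamini-Hochberg adjusted, 4 of 9 members were called, all lower, where 27.6% of 14477 genes were called. They were Kcna2 (-0.73, adjusted p = 0.0165), Kcna4 (-0.71, 0.0249), Kcna1 (-0.64, 0.0313) and Kcnab1 (-0.58, 0.0289). DESeq2 called 4 members as well (all genes: 33.7%). With the index as a covariate 0 of 9 were called (all genes: 3.38%), with Kcna2 at -0.27, Kcna4 at -0.37, Kcna1 at -0.14 and Kcnab1 at -0.17. With the replicate number as a block 0 were called too (all genes: 0.283%), at -0.76, adjusted p = 0.07104 for Kcna2, -0.66, adjusted p = 0.112 for Kcna4, -0.63, adjusted p = 0.0947 for Kcna1 and -0.60, adjusted p = 0.0885 for Kcnab1. The count was 0 as well without control Gad2 replicate 2, where Kcna2 was -0.57 (adjusted p = 0.0546) and Kcna1 -0.43 (adjusted p = 0.1105). Kcna4 was then -0.53, adjusted p = 0.08998, and Kcnab1 -0.45, adjusted p = 0.0984. Without HD Gad2 replicate 1 the 4 calls were lost too, at -0.67, adjusted p = 0.0513 for Kcna2, -0.71, adjusted p = 0.0609 for Kcna4, -0.58, adjusted p = 0.0845 for Kcna1 and -0.54, adjusted p = 0.0775 for Kcnab1. Without HD Gad2 replicate 2, Kcna4 (-0.63, adjusted p = 0.0723), Kcna1 (-0.53, adjusted p = 0.0869) and Kcnab1 (-0.45, adjusted p = 0.0707) lost theirs. Kcna1 and Kcnab1 also lost them without control vGluT2 replicate 1 (-0.58, adjusted p = 0.06301, and -0.57, adjusted p = 0.0525), control vGluT2 replicate 4 (-0.63, adjusted p = 0.0542, and -0.54, adjusted p = 0.0563) and HD vGluT2 replicate 3 (-0.62, adjusted p = 0.0566, and -0.56, adjusted p = 0.0529), and Kcna1 without HD vGluT2 replicate 2 (-0.61, adjusted p = 0.0545). The calls of the mean thus changed with single libraries, as did those of all genes (1538 to 6559 called). The IPs of the same vGluT2 line showed Kcna1 at -0.51, Kcna4 at -0.56, Kcna2 at 0.17 and Kcnab1 at 0.31, none called, and with the index as a covariate Kcna1 was called at -0.70. A test of the difference between IP and total RNA was not run.

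**Figure D3:**
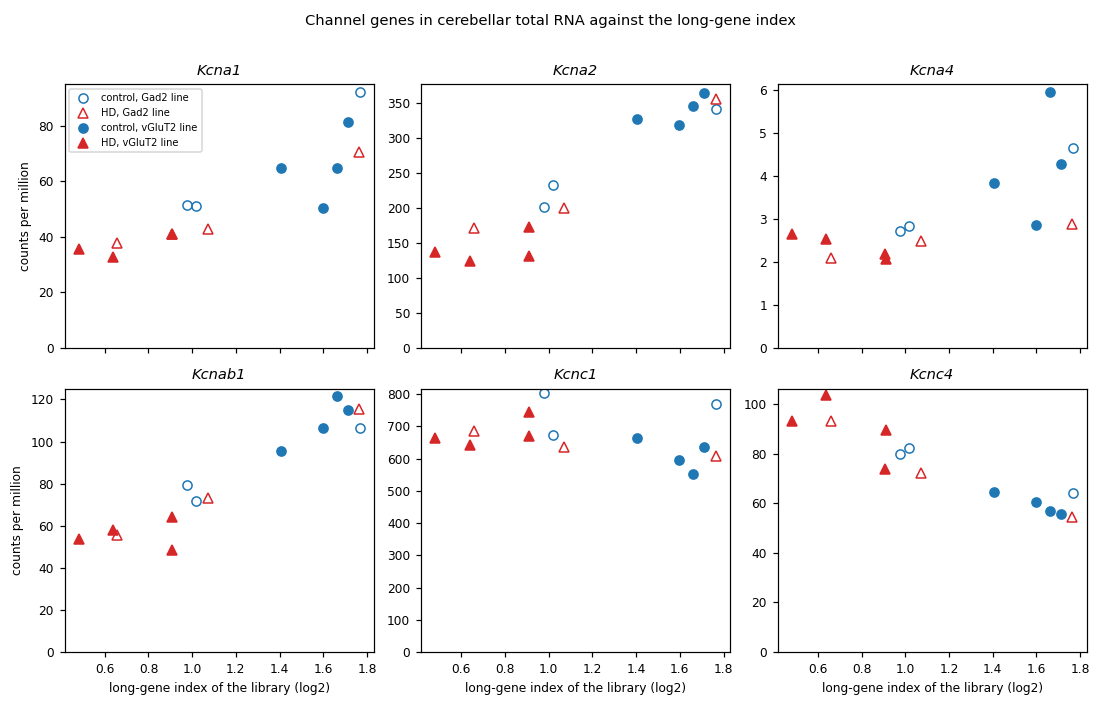
Level in CPM of 6 of the genes in each of the 14 cerebellar total RNA libraries against the long-gene index of the library, control as blue circles and HD as red triangles, the vGluT2 line filled and the Gad2 line open. In the vGluT2 line all HD libraries lie left of all control libraries, and Kcna1, Kcna2, Kcna4 and Kcnab1 are lower and Kcnc4 higher in them.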

How the data were processed

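Poly(A) RNA from HD and control mice was sequenced from RiboTag IPs and from total RNA. The authors made libraries with a stranded kit, aligned paired-end reads with STAR and quantified them with Salmon, and the deposited values are estimated counts per gene (expected counts), not normalised. Of the deposited values, 8.58% were not whole, and all were rounded before testing. Of 55401 genes, 55141 were matched by identifier to the annotation used for gene type, position and exon length, and 92 spike-ins were left out (at most 4.45% of a library). Libraries held 21905221 to 107753586 counts. The 9 members and 3 gene lists were chosen with earlier results of these data known. Genes are named by rule: the members, and of the lists at most 3 called genes per direction with the largest fold changes.

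Protein-coding genes with a mean count above 10 in a fit were tested by edgeR's quasi-likelihood F test (edgeR 4.0.16, limma 3.58.1, R 4.3.3) after TMM scaling (factors 0.802 to 1.22), with Benjamini-Hochberg adjustment over all tested genes and a threshold of 0.05. HD effects were fitted per IP group, and for total RNA per region with line and genotype as groups. Levels were contrasted among 54 control libraries, and differences of HD effects among all 67 IP libraries. The standard error is the size of the log2 fold change over the root of F, and intervals are 95%. Python 3.11.15 made the other tables with pandas 2.3.3 and numpy 2.4.6, and the plots with matplotlib 3.10.9. Replicate numbers were checked as pairs of HD and control mice: of 48 pairs, r ran from -0.85 to 0.97, 25 were above 0.1 and 13 were each other's best match. Cerebral Gad2 total RNA was the 1 of 12 sets with all pairs above 0.1 (0.57 to 0.97). The numbers were not used as pairs, and were run as a block as an alternative. No libraries were found to be copies of each other. The test was also run on simulated data, and no result given here rests on that.

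Alternatives were DESeq2 1.42.0, its size factors in edgeR, library totals without TMM, no low-count filter, each library left out, the replicate number or the mouse as a block, all IPs in 1 fit, only the groups of a contrast, only total RNA of the same line, leaving out 3 libraries sequenced again, leaving out SST controls with another label prefix or the SST line, and for likeness another pseudocount or group means. The 3 libraries sequenced again, by the authors with longer reads, were HD IPs of PV, cerebral vGluT2 and cerebellar Gad2. Fits of IPs with the replicate number as a block left these libraries out too. The long-gene index as a covariate, and the mouse as a block for differences between regions, were added after seeing the data.

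The main limits are these. IPs held transcripts of other cells, the Cre lines mark different mixtures of neurons, and bulk samples do not give levels per cell. The long-gene index differs between libraries, and in cerebellar vGluT2 total RNA it cannot be told apart from genotype. Total RNA groups hold 3 or 4 libraries per genotype. The strand setting of the counting and the annotation release used by the authors are not stated in the available descriptions. Intervals cover the spread between libraries.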

Additional observations from a re-analysis of the deposited data

Results flagged for a closer look

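For each of the 9 genes, every group of 4 to 10 libraries was searched for a library far from the others by Dixon's criterion, which chance meets in about 1 in 20 groups. It was met in 11 of 135 groups. Kcnc2 met it in 4: 28.9 CPM in replicate 5 of the control cerebellar vGluT2 IPs, where the others held 7.63 to 12.8, 20.5 CPM in replicate 5 of the HD cerebellar vGluT2 IPs, where the others held 2.57 to 7.97, 39.3 CPM in replicate 1 of the control cerebral vGluT2 IPs, where the others held 79.1 to 90.3, and 134 CPM in replicate 4 of the control cerebral Gad2 IPs, where the others held 172 to 194. Kcnab1 met it in 3: 47.8 CPM in replicate 1 of the control cerebral vGluT2 IPs, where the others held 96.02 to 103, 91.4 CPM in replicate 3 of the control SST IPs, where the others held 122 to 127, and 129 CPM in replicate 4 of the HD cerebellar Gad2 IPs, where the others held 230.2 to 252. Replicate 1 of the control cerebral vGluT2 IPs was thus low in both genes. Kcnc4 was low at 43.7 CPM in replicate 2 of the control cerebellar vGluT2 IPs, where the others held 65.4 to 73.7, and at 77.5 CPM in replicate 4 of the control SST total RNA, where the others held 106 to 108.2. Kcna2 was low at 149 CPM in replicate 6 of the control cerebral Gad2 IPs, where the others held 225 to 259. Kcns3 was high at 2.15 CPM in replicate 5 of the control cerebellar Gad2 IPs, where the others held 0.3102 to 0.828. Of these libraries 3 had the lowest long-gene index of their group: replicate 1 of the control cerebral vGluT2 IPs (0.89, others 1.34 to 1.61), replicate 6 of the control cerebral Gad2 IPs (0.86, others 1.05 to 1.52) and replicate 4 of the HD cerebellar Gad2 IPs (0.79, others 1.22 to 1.85), and Kcnc2, Kcnab1 and Kcna2, low there, are long genes. What set these libraries apart was not tested.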

How the results depend on the processing

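Counted here are the members' log2 fold changes called for levels and, for HD effects and their differences, those with an unadjusted p of 0.05 or less, those of members separated by genotype and those of Kcnc1, Kcnc2, Kcna1 and Kcna2 in PV and cerebellar Gad2 IPs. Other printed values, such as Kcna1 in cerebellar vGluT2 IPs, are not. Calls gained for levels, such as that of Kcnc4 in SST IPs, are left out too. Under the alternatives, 5998 kept direction and side of the threshold, 88 kept direction but lost their call, 3 gained one and 15 changed sign. Of the counts of members called and the likeness counts, 1490 stayed within 1.5 times the reported count and 22 did not.

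For HD effects, the count of members called went from 0 to 1 in cerebral Gad2 IPs with DESeq2 (all genes: 0.523%), and from 0 to 1 in cerebellar vGluT2 IPs both with the long-gene index as a covariate (4.92%) and with all IPs in 1 fit (3.74%). In cerebellar vGluT2 total RNA the count of 5 became 0 with the index (all genes: 5.46%) and 3 with the replicate number as a block (34.6%). In the mean of the cerebellar lines the count of 4 became 0 with the index (3.38%) and 0 with that block (0.283%). With each library left out that count ran from 0 to 5, beside 1538 to 6559 of all genes. For the difference between cerebellar vGluT2 and Gad2 IPs the members called ran from 0 to 1 with each library left out, beside 47 to 191 of all genes.

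For levels, the mouse as a block gave 3 members for PV against Gad2 IPs (all genes: 24.4%), 1 for PV against SST (1.17%), 5 for PV against vGluT2 (28.7%) and 4 for SST IPs against total RNA (46.7%). The index gave 4 for SST IPs (31.6%) and 7 for cerebellar vGluT2 IPs (64.3%) against total RNA, and a fit of only PV and SST IPs gave 8 (18.2%). With group means, 5 of the genes nearest in pattern were named again.

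Signs changed with the index for Kcna1 in PV IPs against total RNA (-0.75), Kcna4 in SST IPs (-0.38) and Kcnab1 in cerebral vGluT2 IPs (-0.0575). For HD effects they changed with library totals without TMM for Kcna2 in cerebellar Gad2 IPs (0.034) and with the replicate block for Kcnc2 (-0.10) and Kcna2 (0.0157) in PV IPs. With each library left out, the HD effect in cerebellar Gad2 IPs ran from -0.28 to 0.0167 for Kcna1, -0.14 to 0.0246 for Kcna2 and -0.0121 to 0.66 for Kcnc2, and in PV IPs from -0.19 to 0.11 for Kcna1 and -0.0741 to 0.15 for Kcnc2. In all of these the cause was not tested.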
